A study of Mus with 21 samples.

Results

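The transcripts followed here belong to the matrix-degrading machinery of a healing wound: 8 matrix metalloproteinases (Mmp2, Mmp3, Mmp8, Mmp9, Mmp10, Mmp12, Mmp13 and Mmp14) and 2 of their tissue inhibitors (Timp1 and Timp3). They were taken by gene symbol from a named list, and all 10 were found among the 18806 genes of the count files. All 21 libraries came from skin wound tissue of wild-type C57BL/6 mice, female and 8 weeks old according to the methods of the study and were taken on Day 4 after circular full-thickness wounds of 8 mm had been punched on both flanks of the back. The control group of 3 mice received no hydrogel scaffold. The other 6 groups, also of 3 mice, received a gelatin methacryloyl (GelMA) hydrogel of pH 6.4, 7.4 or 8.4 that carried either acidic fibroblast growth factor (aFGF) or basic fibroblast growth factor (bFGF). A group is named by pH and growth factor, so that 6.4-GelMA/aFGF is the hydrogel of pH 6.4 with aFGF. Each group has 3 libraries, and whether both wounds of a mouse entered 1 library is not given in the sources used here. Since no group analysed here had a hydrogel without a growth factor, the hydrogel and the growth factor cannot be told apart in any comparison with control.

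Matrix metalloproteinases are zinc-dependent endopeptidases that are mostly made as inactive proenzymes and, once activated, cleave collagens, laminins, elastin and other matrix proteins. In skin wounds they are made by migrating keratinocytes, fibroblasts, neutrophils and macrophages, and they open the provisional matrix to cell migration and vessel growth. Tissue inhibitors of metalloproteinases (TIMPs) bind the active enzymes and block them, so matrix turnover depends on both families. Transcript levels say nothing by themselves of proenzyme activation or of enzyme activity.

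Library totals ran from 34362558 to 37817833 counts, with a median of 36771838. Keratinocyte and fibroblast markers were present in every library, as the label of skin requires. They were led by Krt14 at 1178 to 2942 counts scaled to the normalized library total (CPM) and Col3a1 at 14424 to 28992 CPM. Skeletal muscle markers varied widely, from a summed 298 to 19035 CPM, and 3 libraries held transcripts of another tissue: cartilage genes were highest in 7.4-GelMA/aFGF replicate 3, liver genes in 8.4-GelMA/aFGF replicate 2 and ovary genes in 8.4-GelMA/bFGF replicate 2. Liver genes were not limited to that library: they summed to 3.17 to 239 CPM (median 18.4) with aFGF, 1.62 to 53.5 CPM (median 4.17) with bFGF and 2.23 to 35.7 CPM in control. Control replicate 2 stood apart from the other 2 control libraries, with 12 neutrophil markers summing to 9734 CPM against 1394 and 810 CPM. The comparisons that use the libraries of another tissue were also fitted without them, and those with control also without control replicate 2. These are bulk tissue samples, in which fewer cells of a type and less RNA per cell cannot be told apart.

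Per length of transcript, as fragments per kilobase scaled to the library total (FPKM), Timp1 was the most abundant of the 10, with a mean of 1054 FPKM over the 21 libraries. The stromelysin Mmp3 followed at 336 FPKM, then the gelatinase Mmp2 at 262 FPKM and the membrane-anchored Mmp14, which activates the proenzyme of Mmp2, at 201 FPKM. The gelatinase Mmp9 averaged 90.1 FPKM, the neutrophil collagenase Mmp8 47.5 FPKM and Timp3 36.2 FPKM. The lowest 3 were the macrophage elastase Mmp12 at 27.7 FPKM, the collagenase Mmp13 at 25.9 FPKM and the stromelysin Mmp10 at 8.88 FPKM. Spread over the libraries differed as well. On the CPM scale the highest library exceeded the lowest 78.9-fold for Mmp8, 69.0-fold for Mmp10 and 23.2-fold for Mmp12. Mmp14, Mmp2 and Timp3 were the steadiest, at 2.24-fold, 2.75-fold and 2.77-fold. For Mmp8, Mmp9, Mmp10, Mmp13, Mmp3 and Timp1 the lowest library of all was control replicate 3.

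**Figure D1:**
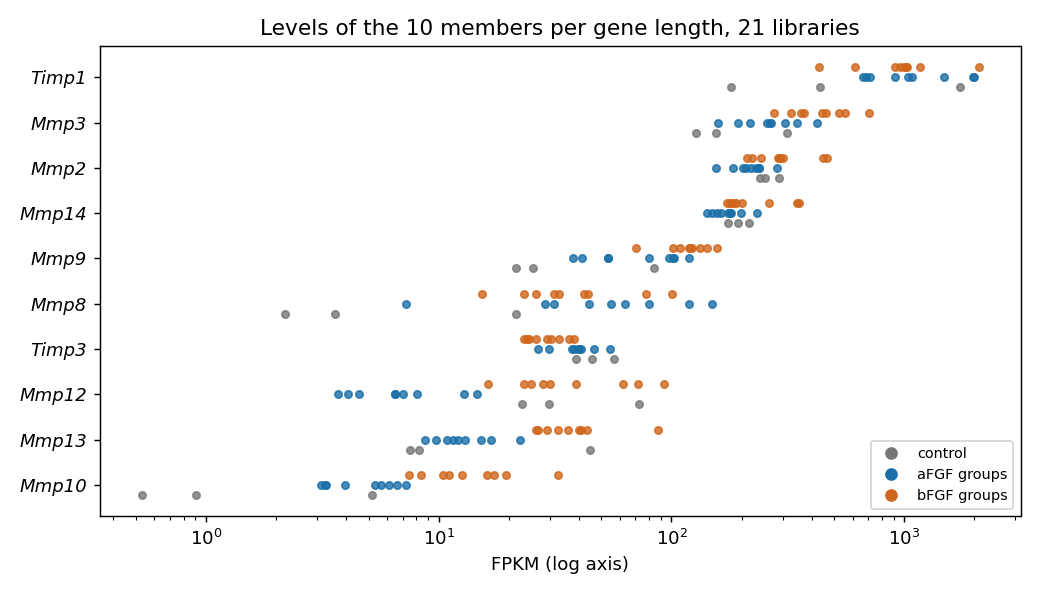
Level of the 10 genes in every library, in FPKM on a log axis, ordered by mean level, with 1 point per library for control (3), the aFGF groups (9) and the bFGF groups (9). Timp1 lies highest and Mmp10 lowest, and Mmp12 shows the aFGF points to the left of the bFGF points.

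In the genome annotation 5 of the 10 genes, Mmp13, Mmp12, Mmp3, Mmp10 and Mmp8, belong to 1 run of 10 neighbouring metalloproteinase genes on chromosome 9, in the order Mmp13, Mmp12, Mmp1b, Mmp3, Mmp1a, Mmp10, Mmp8, Mmp27, Mmp20 and Mmp7. The other 5 lie apart, Mmp9 on chromosome 2, Mmp2 on 8, Timp3 on 10, Mmp14 on 14 and Timp1 on X. Genes of the run are related in sequence, and how reads that match several of them were counted is not given in the sources used here, so low values of a gene whose relative in the run is abundant, such as Mmp10 and its relative Mmp3, carry that uncertainty.

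Averaged over the 3 pH values, wounds under aFGF hydrogels held less Mmp12, Mmp10 and Mmp13 than wounds under bFGF hydrogels, by 5.16-fold, 3.01-fold and 2.92-fold. In edgeR's quasi-likelihood test of the 3 aFGF groups against the 3 bFGF groups, where a gene was called if its log2 fold change exceeded 0.58 in size and its p after Benjamini-Hochberg adjustment fell below 0.05, 3 of the 10 genes were called, all lower with aFGF, where 506 of 15811 genes (3.20%) were called in either direction, 231 higher and 275 lower. The median log2 fold change was -0.51 over the 10 genes and -0.0016 over all tested genes, and 7 of the 10 were lower. This comparison over the 3 pH values was added after the values had been seen.

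Mmp12 encodes macrophage elastase, which degrades elastin and other matrix proteins and is made mainly by macrophages. With aFGF it stood at 25.6, 54.5 and 17.5 CPM at pH 6.4, at 14.6, 24.4 and 47.4 CPM at pH 7.4, and at 17.1, 31.0 and 26.3 CPM at pH 8.4. With bFGF it stood at 103, 90.5 and 276 CPM at pH 6.4, at 221, 339 and 158 CPM at pH 7.4, and at 110, 55.4 and 90.4 CPM at pH 8.4. All 9 aFGF libraries lay below all 9 bFGF libraries, a pattern found for 43 of 15811 genes (0.272%), although the closest pair, 54.5 and 55.4 CPM, differed little. The log2 fold change was -2.37 ± 0.34 (standard error), with an adjusted p of 0.0030 by edgeR's quasi-likelihood test.

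Mmp13 encodes collagenase-3, which cleaves fibrillar collagen and in wounds is made by fibroblasts and basal keratinocytes. With aFGF it stood at 32.3, 40.2 and 35.6 CPM at pH 6.4, at 34.05, 28.7 and 58.4 CPM at pH 7.4, and at 29.1, 23.9 and 44.7 CPM at pH 8.4. With bFGF it stood at 75.9, 98.5 and 117 CPM at pH 6.4, at 83.0, 103 and 118 CPM at pH 7.4, and at 69.6, 62.8 and 225 CPM at pH 8.4. Here too no aFGF library reached the lowest bFGF library. The log2 fold change was -1.54 ± 0.35, with an edgeR adjusted p of 0.0146.

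Mmp10 encodes stromelysin-2, which is made at the migrating epidermal edge of a wound and cleaves laminins and proteoglycans. With aFGF it stood at 12.1, 12.4 and 9.41 CPM at pH 6.4, at 7.21, 5.58 and 9.59 CPM at pH 7.4, and at 6.32, 5.55 and 10.5 CPM at pH 8.4. With bFGF it stood at 27.1, 30.8 and 22.2 CPM at pH 6.4, at 12.2, 17.5 and 60.9 CPM at pH 7.4, and at 14.1, 17.2 and 32.4 CPM at pH 8.4. The 2 arms met only at their edges, where the highest aFGF library (12.4 CPM) passed the lowest bFGF library (12.2 CPM). The log2 fold change was -1.59 ± 0.40, with an edgeR adjusted p of 0.0212. Without the 3 libraries that held transcripts of another tissue it was -1.65 and the adjusted p rose to 0.0585, so the call of Mmp10 was lost and 2 of the 10 genes were called, against 2.33% of all genes.

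**Figure D2:**
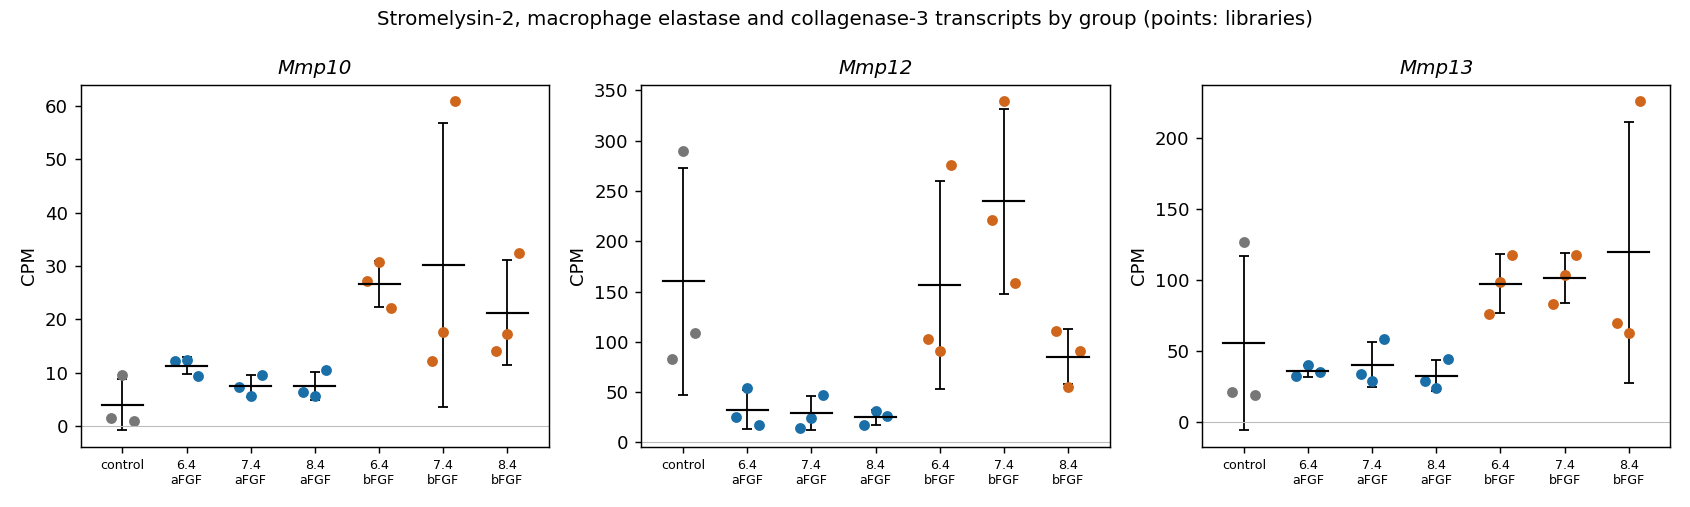
CPM of Mmp10, Mmp12 and Mmp13 in the 7 groups, with 1 point per library (n = 3), a horizontal line for the group mean and a bar for 1 SD. For Mmp12 and Mmp13 each of the 9 aFGF libraries (blue) lies below each of the 9 bFGF libraries (orange), and 1 control library (grey) lies above the other 2 in all 3 panels.

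Markers of the cell types that make these enzymes were compared over the same libraries. Between the aFGF and bFGF groups edgeR called 3.20% of all genes. The 12 macrophage markers, led by Lyz2, summed to 7505 to 11558 CPM (median 10160) with aFGF and 6017 to 10385 CPM (median 8957) with bFGF. Of the 12, 1 was called, Fcgr1, higher with aFGF by a log2 fold change of 0.66 (edgeR adjusted p = 0.0443). Fibroblast markers summed to 34162 to 53930 CPM (median 42943) with aFGF and 41055 to 75103 CPM (median 46172) with bFGF, and 1 of 12 was called, Pdgfrb, lower with aFGF by a log2 fold change of -0.79. The 12 wound-edge keratinocyte markers, led by Krt6a, summed to 2985 to 5527 CPM (median 4552) and 3257 to 4973 CPM (median 4049), and 2 of them were called, Itga5 and Epgn, both higher with aFGF. Neutrophil markers summed to 4482 to 12021 CPM and 3476 to 13991 CPM, with none of 12 called. Of 8 tested liver markers 5 were called, all higher with aFGF, Alb, Ttr, Apoa1, Apoa2 and Ahsg, with log2 fold changes from 2.20 to 6.19. None of the macrophage, fibroblast, wound-edge keratinocyte and neutrophil markers was at 0 in any library. The sums overlapped between the arms for these 4 lists and for liver, and their part in the differences of Mmp10, Mmp12 and Mmp13 was not tested. The marker genes named as called, here and against control, were chosen after their values were seen.

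The remaining 7 genes were not called between the arms. Mmp3, stromelysin-1, which degrades matrix and activates other proenzymes, ranged from 298 to 795 CPM (median 473) with aFGF and from 447 to 1364 CPM (median 806) with bFGF. The arms overlapped, and its log2 fold change of -0.70 ± 0.23 missed the threshold with an edgeR adjusted p of 0.0566. Mmp3 was called by DESeq2 and by limma on log2(FPKM + 1), with adjusted p of 0.0186 and 0.0355, in tests that called 4.70% and 1.73% of all genes, and by edgeR on the 18 hydrogel libraries alone, with an adjusted p of 0.0300, where 3.77% were called. The gelatinases Mmp2 and Mmp9 had log2 fold changes of -0.44 ± 0.15 and -0.59 ± 0.30, with edgeR adjusted p of 0.0722 and 0.203. Mmp14 had -0.32 ± 0.14 with an adjusted p of 0.137. Each of the 4 genes had a lower mean with aFGF, and in each the libraries of the 2 arms overlapped.

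The neutrophil collagenase Mmp8 had the opposite sign, with 18.2 to 407 CPM (median 141) with aFGF and 36.4 to 264 CPM (median 78.0) with bFGF. Its difference was small beside its spread, 0.57 ± 0.51, with an edgeR adjusted p of 0.499. Timp3, an inhibitor that is held in the matrix and acts on several metalloproteinase families, ranged from 124 to 267 CPM (median 185) with aFGF and from 101 to 184 CPM (median 132) with bFGF. Its log2 fold change was 0.48 ± 0.15 with an edgeR adjusted p of 0.0492, which passed on p but not on size and was not called. Timp1, a soluble inhibitor of most metalloproteinases, ranged from 602 to 1840 CPM (median 908) and from 369 to 1878 CPM (median 858), with 0.28 ± 0.38 and an adjusted p of 0.673. Both inhibitors and Mmp8 thus had positive differences, none of them called, while the other 7 enzymes had negative ones. Of the negative ones only Mmp10, Mmp12 and Mmp13 were called. The split holds for these genes and not for the family, since Timp2 was negative and Mmp19 positive, as given below.

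**Figure D3:**
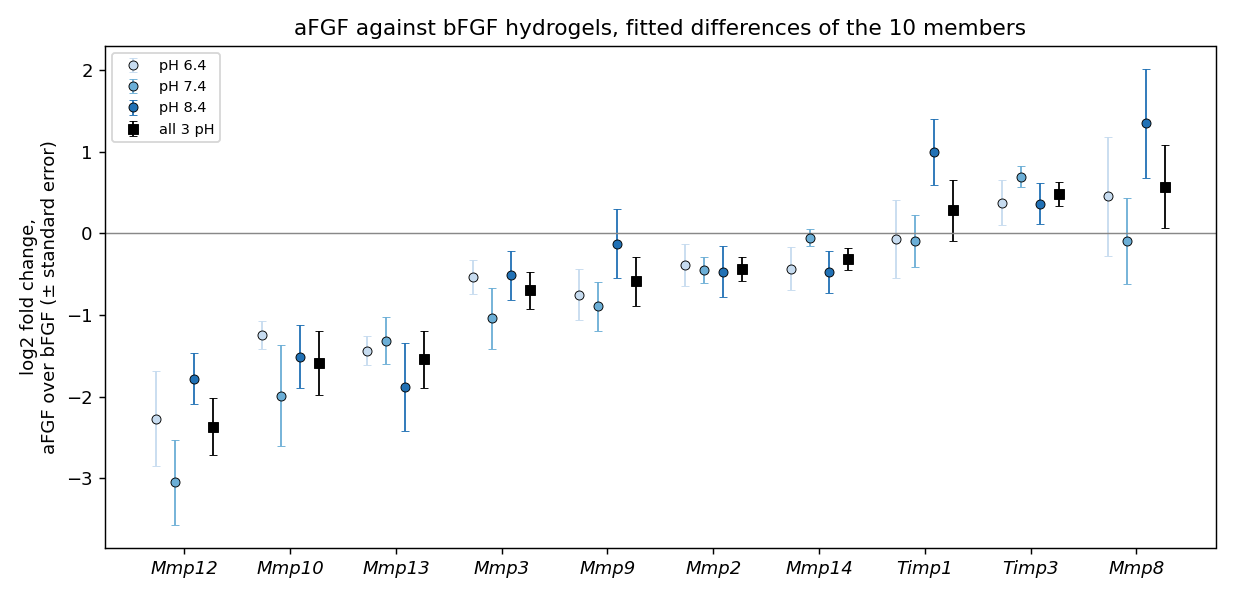
Fitted log2 fold change of aFGF over bFGF for each of the 10 genes, at pH 6.4, 7.4 and 8.4 (blue circles, 3 against 3 libraries) and over all 3 pH values (black squares, 9 against 9), with bars of 1 standard error. Mmp12, Mmp10 and Mmp13 lie below 0 at every pH, and Timp3 lies above 0 at every pH.

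At each pH taken alone, Mmp10, Mmp12 and Mmp13 were lower in all 3 aFGF libraries than in all 3 bFGF libraries. The log2 fold changes of Mmp12 were -2.27 ± 0.58, -3.05 ± 0.52 and -1.78 ± 0.31 at pH 6.4, 7.4 and 8.4. Those of Mmp13 were -1.44 ± 0.18, -1.32 ± 0.29 and -1.88 ± 0.54, and those of Mmp10 were -1.25 ± 0.17, -1.99 ± 0.62 and -1.51 ± 0.38. With 3 against 3 libraries edgeR called none of the 10 genes at any pH, where it called 0, 0 and 1 genes in all (0%, 0% and 0.00665%). The lowest adjusted p among the 10 was 0.584, 0.351 and 0.0883, and 5, 7 and 4 of them had an unadjusted p under 0.05, against 8.16%, 13.0% and 21.1% of all genes. Without the libraries of another tissue edgeR likewise called none of the 10 at pH 7.4 or 8.4. Limma on log2(FPKM + 1) called none of the 10 either. The shares of all genes called in these fits are not given here, so their counts cannot be set beside those of DESeq2. DESeq2 called Mmp10, Mmp12 and Mmp13 at every pH, and Timp3 as well at pH 7.4, in tests that called 0.772%, 1.67% and 6.07% of all genes.

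Libraries of the 2 growth factors did not overlap for 5 of the 10 genes at pH 6.4, 7 at pH 7.4 and 4 at pH 8.4, where 14.8%, 20.4% and 27.7% of all tested genes did not overlap. Besides Mmp10, Mmp12 and Mmp13, these were Mmp3 and Mmp9 at pH 6.4, lower with aFGF, and Mmp14 at pH 8.4, also lower. At pH 7.4 they were Mmp2, Mmp3 and Mmp9, lower with aFGF, and Timp3, higher with aFGF at 228, 185 and 186 CPM against 117, 138 and 117 CPM. The log2 fold change of Timp3 there was 0.69 ± 0.13, with an edgeR adjusted p of 0.351. Timp1 at pH 8.4 had 1068, 829 and 1759 CPM with aFGF against 369, 935 and 520 CPM with bFGF, which overlapped, with a log2 fold change of 1.00 ± 0.41 and an edgeR adjusted p of 0.226.

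The pH of the hydrogel was compared within each growth factor, with pH 7.4 as the reference. No gene at all was called by edgeR in any of the 4 comparisons (0%), and the adjusted p of the 10 genes ran from 0.558 to 1.00. At an unadjusted p under 0.05 none of the 10 passed with aFGF at pH 6.4 or 8.4, and 1 passed with bFGF at each, Mmp14 at pH 6.4 and Mmp12 at pH 8.4. Of all genes, 4.99% and 3.01% passed with aFGF and 8.89% and 5.72% with bFGF, so 1 of 10 was near the share of all genes. Mmp14 stood at 1298, 1025 and 696 CPM in 6.4-GelMA/bFGF against 688, 634 and 730 CPM in 7.4-GelMA/bFGF, with a log2 fold change of 0.58 ± 0.23. The third library at pH 6.4 lay within the range at pH 7.4.

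Mmp12 was lower in all 3 libraries of 8.4-GelMA/bFGF than in all 3 of 7.4-GelMA/bFGF, with a log2 fold change of -1.47 ± 0.37 and an edgeR adjusted p of 0.861, where 7.17% of genes were lower in every library. DESeq2 called it at an adjusted p of 0.0204, the only 1 of the 10 called by DESeq2 in any pH comparison, in a test that called 0.169% of genes. In the other 3 comparisons of pH, 6.4 and 8.4 with aFGF and 6.4 with bFGF, DESeq2 called 0.139%, 0.0652% and 0.748% of genes. Mmp3 was higher in all 3 libraries of 6.4-GelMA/aFGF (795, 549 and 494 CPM) than of 7.4-GelMA/aFGF (298, 473 and 452 CPM), as were 6.08% of genes. Its log2 fold change was 0.58 ± 0.25 with an edgeR adjusted p of 0.832. In the other 2 comparisons of pH, 8.4 with aFGF and 6.4 with bFGF, no member was free of overlap, where 8.58% and 15.3% of genes were.

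Whether the effect of pH differed between aFGF and bFGF was tested as an interaction. None of the 10 genes was called by edgeR, by DESeq2 or by limma on log2(FPKM + 1) for pH 6.4 or pH 8.4 against 7.4, where edgeR called no gene at all (0%) and DESeq2 called 0.173% and 0.0236% of genes. The share that limma called there is not given here. None of the 10 had an unadjusted p under 0.05 in edgeR. The largest interactions at pH 8.4 were Mmp8 at 1.43 ± 0.94, Mmp12 at 1.25 ± 0.63 and Timp1 at 1.08 ± 0.56, each with an edgeR adjusted p of 0.993.

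The comparison with control rested on 3 libraries that differed widely. In these 3 control libraries Mmp10 stood at 1.502, 9.47 and 0.882 CPM, Mmp8 at 8.41, 56.0 and 5.15 CPM and Timp1 at 368, 1637 and 153 CPM. Mmp9 stood at 92.8, 341 and 78.6 CPM, Mmp13 at 21.1, 126 and 19.3 CPM and Mmp3 at 268, 599 and 221 CPM. Mmp12 stood at 82.6, 289 and 108 CPM. In all 7 genes replicate 2 was the highest of the 3, and it was also the library with the high neutrophil marker sum, whose part in these levels was not tested. Mmp14 and Timp3 had that order too, within a narrower range, and Mmp2, at 736, 856 and 889 CPM, did not.

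**Figure D4:**
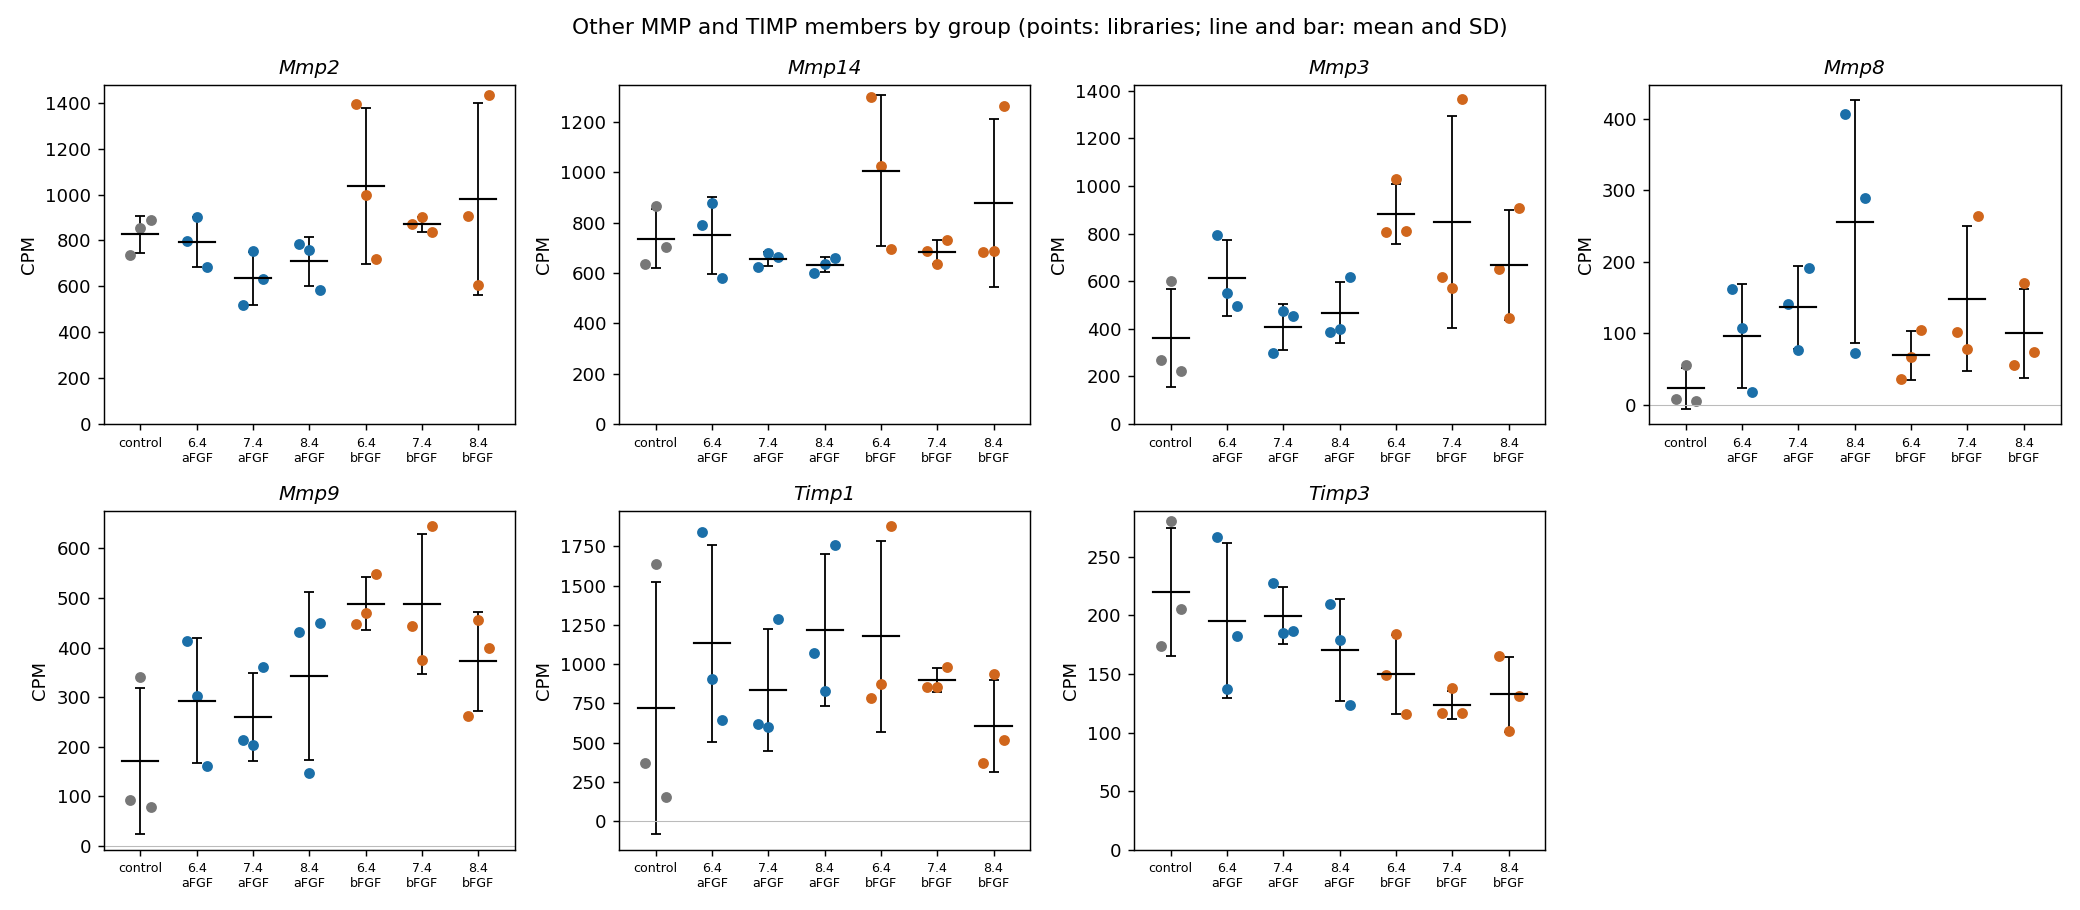
CPM of Mmp2, Mmp14, Mmp3, Mmp8, Mmp9, Timp1 and Timp3 in the 7 groups, with 1 point per library (n = 3), a horizontal line for the group mean and a bar for 1 SD. In control (grey) 1 library stands above the other 2 for Mmp3, Mmp8, Mmp9 and Timp1, and the aFGF (blue) and bFGF (orange) groups overlap in most panels.

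Over all 6 hydrogel groups against control, edgeR called none of the 10 genes and 1 gene of 15811 (0.00632%). Of the 10, 6 had an unadjusted p under 0.05, against 16.7% of all genes. Mmp8, Mmp10, Mmp9 and Mmp3 had positive log2 fold changes of 2.41 ± 0.82, 1.91 ± 0.60, 1.09 ± 0.43 and 0.78 ± 0.32, and Mmp12 and Timp3 had negative ones of -1.30 ± 0.39 and -0.46 ± 0.19. DESeq2 called Mmp8 and Mmp10, where it called 1.16% of genes, and limma on log2(FPKM + 1) called none, where it called 0.00817%. No member was free of overlap between hydrogel and control libraries, as 0.607% of all genes were. Without control replicate 2, edgeR called 6 of the 10, Mmp3, Mmp8, Mmp9, Mmp10, Mmp13 and Timp1, all higher under hydrogels, where it called 7.4% of all genes. Their log2 fold changes then ran from 1.35 for Mmp3 to 4.18 for Mmp8. Neutrophil markers summed to 810 and 1394 CPM in the 2 control libraries left and to 3476 to 13991 CPM in the 18 hydrogel libraries. Control replicate 2, set apart above by this same sum, lay within the hydrogel range at 9734 CPM. The gap therefore rests on leaving it out. Wound-edge keratinocyte markers summed to 2665 and 2823 CPM against 2985 to 5527 CPM, and control replicate 2, at 4228 CPM, again lay within the hydrogel range. The part of either list in these differences was not tested.

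The 2 growth factors were then set against the same 3 control libraries, which these comparisons share, and each was added after the values had been seen. With aFGF, Mmp12 was 5.61-fold lower than in control (log2 fold change -2.49 ± 0.42, edgeR adjusted p = 0.0162), the 1 gene of the 10 that was called, where 1.26% of all genes were called. The highest of the 9 aFGF libraries, at 54.5 CPM, lay below the lowest control library, at 82.6 CPM, as did 1.70% of genes. The call was kept without control replicate 2 (-1.74, adjusted p = 0.0149) and lost without control replicate 1 (-2.80, adjusted p = 0.0744) or replicate 3 (-2.70, adjusted p = 0.111). Among the markers, the macrophage gene Gpnmb was also called lower with aFGF than in control, with a log2 fold change of -1.84 (edgeR adjusted p = 0.0159), 1 of 12 macrophage markers, as was the fibroblast gene Postn with -1.23, 1 of 12, while the keratinocyte gene Dsg3 was called higher with 0.93. The macrophage markers summed to 7661 to 10408 CPM in control and 7505 to 11558 CPM with aFGF, and their part in the difference of Mmp12 was not tested. Mmp8 had a log2 fold change of 2.69 ± 0.86 with aFGF and an edgeR adjusted p of 0.0903, and it was called beside Mmp12 by DESeq2 and by limma on log2(FPKM + 1), which called 3.83% and 1.13% of genes. With bFGF, Mmp12 had a log2 fold change of -0.12 ± 0.46 and an edgeR adjusted p of 0.927.

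With bFGF edgeR called none of the 10 genes against control and 2 genes in all (0.0126%), while 5 of the 10 had an unadjusted p under 0.05, against 13.5% of all genes, and DESeq2 called Mmp3 and Mmp10, where it called 0.575% of genes. Limma on log2(FPKM + 1) called none, where it called 0.00817% of genes. Mmp10 was higher in all 9 bFGF libraries (12.2 to 60.9 CPM) than in all 3 control libraries, as were 1.71% of genes, with a log2 fold change of 2.71 ± 0.66 and an edgeR adjusted p of 0.195. With aFGF its log2 fold change was 1.12 ± 0.60, with an adjusted p of 0.278. Timp3 had -0.70 ± 0.20 with bFGF and -0.23 ± 0.21 with aFGF, with adjusted p of 0.225 and 0.544. Without control replicate 2, edgeR called 5 of the 10 in each comparison: Mmp8, Mmp9, Mmp10 and Timp1 higher and Mmp12 lower with aFGF, and Mmp3, Mmp8, Mmp9, Mmp10 and Mmp13 higher with bFGF, against 11.9% and 2.65% of all genes.

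In the test of any difference between the 7 groups, none of the 10 was called by edgeR, where 18 genes (0.114%) were. Mmp12 came closest, at an adjusted p of 0.0533. DESeq2 called Mmp3, Mmp10, Mmp12 and Mmp13, in a test that called 12.3% of genes, and limma on log2(FPKM + 1) called Mmp12, where it called 0.123%. Without control replicate 2 edgeR called 4 of the 10, where it called 5.38% of genes.

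Of the other 17 metalloproteinase and TIMP genes of the files, 15 passed the filter. Between the aFGF and bFGF groups 2 were called, where 3.20% of all genes were. Mmp19, which cleaves basement membrane proteins, went the other way from Mmp10, Mmp12 and Mmp13. It ranged from 299 to 986 CPM (median 504) with aFGF and from 146 to 215 CPM (median 176) with bFGF. Its log2 fold change was 1.67 ± 0.16, with an edgeR adjusted p of 9.89e-05, and it was also higher with aFGF than in control (181 to 258 CPM), with 1.32 ± 0.24 and an adjusted p of 0.0204. Mmp11, stromelysin-3 of stromal cells, was lower with aFGF, at 6.22 to 33.8 CPM (median 10.2) against 15.9 to 44.5 CPM (median 25.2), with -1.07 ± 0.28 and an adjusted p of 0.0247. The inhibitor Timp2 averaged 197 FPKM and had a log2 fold change of -0.13 ± 0.17. Mmp23, the other gene of the highest 4 by level, averaged 25.0 FPKM and had -0.15 ± 0.14.

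Among 24 genes that activate or restrain these enzymes, 23 were tested between the aFGF and bFGF groups. None was called by edgeR, and 10 had an unadjusted p under 0.05, against 28.0% of all genes. In this comparison edgeR called 3.20% of all genes, the share to set beside the count of each list here. Abundant genes of that list were the neutrophil gelatinase partner Lcn2 at 650 FPKM, the protease inhibitor Serpinb2 at 455 FPKM and the matricellular Thbs1 at 414 FPKM. Of 25 cytokine, growth factor, AP-1, ETS and related genes known to drive metalloproteinase transcription, 2 were called, both higher with aFGF: the epidermal growth factor receptor ligand Areg by a log2 fold change of 1.61 ± 0.25 (edgeR adjusted p = 0.0037) and Nfkb1 by 0.86 ± 0.21 (adjusted p = 0.0196). The most abundant of that list, Il1b, Junb, Fos and Jund, were not called, with log2 fold changes of 0.19, 0.49, 0.45 and 0.36. Of 19 tested matrix substrates 1 was called, Col7a1 of the anchoring fibrils, lower with aFGF by a log2 fold change of -0.71 ± 0.14 (edgeR adjusted p = 0.0074). The abundant substrates Col3a1, Col1a1, Col1a2 and Dcn had -0.18, -0.34, -0.32 and -0.29 and were not called.

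The metalloproteinase genes fell into partly separate patterns across the 21 libraries, which is given as a description, since the libraries share groups and tissue make-up. The closest pair by Pearson's r of log2 CPM was Mmp3 and Mmp10, both in the chromosome 9 run, at 0.91. Next came Mmp9 and Mmp10 at 0.87, Mmp2 and Mmp14 at 0.82, and Mmp10 and Mmp13 at 0.81. Without the 2 libraries farthest from the median of the first gene these values fell to 0.85, 0.70, 0.55 and 0.78. Within the 9 aFGF libraries they were 0.70, 0.51, 0.56 and 0.66, and within the 9 bFGF libraries 0.87, 0.64, 0.86 and 0.53. Mmp12, which lies in the same run, had r of 0.66 with Mmp13 and 0.28 with Mmp10. These were 0.62 and 0.59 without the 2 libraries farthest from the median. Within the 9 aFGF libraries they were 0.47 and 0.42, and within the 9 bFGF libraries 0.18 and -0.16. Timp3 had r between -0.47 and -0.07 with the other 9 genes over the 21 libraries. Its r ran from -0.47 with Mmp12 to 0.014 with Mmp8 within the 9 aFGF libraries. Within the 9 bFGF libraries it ran from -0.73 with Mmp8 to 0.54 with Mmp2.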

How the data were processed

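RNA was sequenced from 21 wound libraries, with groups taken from the sample labels. The authors deposited a read count and an FPKM value per gene and library, FPKM being the count divided by gene length and library total, which was checked on 15305 genes. The submitters' processing notes name the build GRCm39; the aligner, the counter, the annotation and the strand setting of the counting are not given in the sources used here. CPM were computed in edgeR from the counts and the library totals of the genes that passed the count filter, scaled by the TMM factor of each library. Counts were tested in edgeR 4.0.16 (R 4.3.3) with TMM normalization, filterByExpr and the quasi-likelihood F test, and a gene was called if its log2 fold change exceeded 0.58 in size and its p after Benjamini-Hochberg adjustment fell below 0.05 (for the 7 groups, on p alone). All 10 genes passed the filter in each comparison. Comparisons that average several groups, and the test of the 7 groups, were fitted on all 21 libraries. Those between 2 groups used their own 6, and the interactions used only the libraries of the groups they involve. The alternatives were DESeq2 1.42.0, limma 3.58.1 on log2(FPKM + 1) or log2(FPKM + 0.1) for genes with a mean FPKM of at least 1 or without that filter, RLE normalization, other count filters, a replicate block, no fold threshold, and libraries left out. The tests were tried on simulated data first. Group means are plotted with SD, and fold changes are given with standard errors. For edgeR the standard error was derived as the size of the log2 fold change divided by the square root of the quasi-likelihood F. Replicate libraries of a group differed by more than counting noise.

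The members, the gene lists and the tests were chosen with earlier results of these data known. The comparisons that average the 3 aFGF or the 3 bFGF groups, and their alternatives, were added after the members' values were seen. Named genes are the 10 members and, from each list, the 4 with the highest mean FPKM and up to 4 called genes of a comparison by smallest adjusted p; 1 gene that this rule names is not reported here. Gene order came from the start positions of protein-coding genes in the RefSeq annotation of GRCm38.p6, and no coordinates are given.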

Additional observations from a re-analysis of the deposited data

How the results depend on the processing

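The lower Mmp12 and Mmp13 with aFGF than with bFGF stayed called under all alternatives run, with log2 fold changes of -2.70 to -2.14 and -1.71 to -1.26, and the call of Mmp10 was lost only without the 3 libraries with other tissue genes. DESeq2 called 4 of the 10 genes between the 7 groups, 2 for hydrogels against control, 1 for 8.4-GelMA/bFGF against 7.4-GelMA/bFGF, 3, 4 and 3 for aFGF against bFGF at pH 6.4, 7.4 and 8.4, 2 for aFGF against control and 2 for bFGF against control, and limma with either pseudocount called 1 between the 7 groups and 2 for aFGF against control; the cause was not tested. Leaving out 1 library gave 0 to 4 called genes between the 7 groups, 0 to 6 for hydrogels against control, 0 to 5 for aFGF against control, 0 to 5 for bFGF against control and 3 to 4 for aFGF against bFGF, the highest each time without control replicate 2 and, for aFGF against bFGF, also without 8.4-GelMA/aFGF replicate 3. Signs turned only for differences that were not called with all libraries. Mmp2 in hydrogels against control (-0.0024) became 0.0128 with DESeq2, 0.0128 with RLE normalization, 0.0072 without a count filter, 0.0051 with at least 10 counts in every library and 0.0323 without the 3 libraries with other tissue genes. Leaving out 1 library gave -0.0780 to 0.0530 for Mmp2, -0.25 to 1.62 for Mmp13, -0.0524 to 0.175 for Mmp14 and -0.0761 to 1.87 for Timp1 there, -1.02 to 0.84 for Mmp13 and -0.21 to 0.0155 for Mmp14 with aFGF against control, and -0.44 to 0.63 for Mmp12 and -0.22 to 1.73 for Timp1 with bFGF against control. Mmp12 with bFGF against control became 0.0046 with the replicate block and 0.0133, 0.0125 and 0.0133 with limma. Same-numbered libraries of different groups had a median correlation of deviations of 0.0089, with 14 of 63 pairs over 0.1. For pairs with other numbers the median was -0.0082, with 31 of 126 over 0.1. Of the 21 libraries, 5 were closest to their own number. Deviations from means of 3 libraries depend on each other, so a shared batch cannot be judged from these values. With the replicate block 403 genes in place of 506 were called for aFGF against bFGF. The same block gave 101 in place of 199 for aFGF against control and 10 in place of 18 between the 7 groups. Over all genes DESeq2 called 2030 between the 7 groups, 171 for hydrogels against control, 777 for aFGF against bFGF, 579 for aFGF against control and 91 for bFGF against control, and limma on log2(FPKM + 1) called 212 for aFGF against bFGF. Without the fold threshold 1702 and 375 genes were called for aFGF against bFGF and aFGF against control. By median in place of mean FPKM, Mmp8 ranked 7 and Timp3 ranked 6.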

Other observations

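Genes whose level followed each member most closely over the 21 libraries were sought among 15801 tested genes, by Pearson's r of log2 CPM, as a description of libraries that share groups and tissue make-up. Mmp8 was closest to Cd33, Pram1 and Usp32, with r of 0.95, 0.94 and 0.94. Cd33 is a receptor of myeloid cells. Mmp2 was closest to Aebp1, Serpinf1 and Ppic (0.93, 0.93 and 0.92), and Mmp14 to Antxr1, Bgn and Dkk3 (0.93, 0.91 and 0.89), of which Bgn is a matrix proteoglycan. Mmp10 was closest to Grem1, an antagonist of bone morphogenetic proteins, at 0.91. Mmp3 and Mmp13 had the same closest gene, the fibrillar collagen Col24a1, at 0.86 and 0.83. Mmp12 was closest to Fchsd2 at 0.83, Mmp9 to Lysmd3 at 0.93 and Timp1 to Crispld2 at 0.93. Timp3 had the lowest closest value of the 10, 0.74 with Slco3a1.

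Summed per length over the 8 enzymes, wounds under aFGF hydrogels held 598 to 1046 FPKM (median 823) and those under bFGF hydrogels 950 to 1609 FPKM (median 1158), with overlap. The sum of Timp1 and Timp3 was 712 to 2033 FPKM (median 1067) with aFGF and 465 to 2113 FPKM (median 1032) with bFGF. The ratio of Mmp9 to Timp1 in FPKM was 0.0411 to 0.0936 with aFGF and 0.0678 to 0.179 with bFGF, with overlap. In control it was 0.0483 to 0.119, which overlapped both.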
